A study of Rattus norvegicus with 6 samples.

Results

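The unconventional myosins of the hair bundle were examined in rat cochlear outer hair cells, the sensory cells whose length changes boost the vibration of the hearing organ. The members were fixed by gene symbol as Myo6, Myo7a, Myo15a, Myo3a, Myo3b, Myo1c and Myo1h. All 7 were found, each as 1 row, among the 35790 identifiers of the deposited table, 3036 of them unannotated loci. All cells came from Sprague-Dawley rats, labelled wild type, at postnatal day 9, without a treatment named. RNA was taken from 30 outer hair cells picked under a microscope for each library, with 3 libraries from the apical turn, where low frequencies are sensed, and 3 from the basal turn, where high frequencies are sensed. Values of a turn are given below in the order of replicates 1, 2 and 3. The comparison asks how outer hair cells of these turns differ, in a study that links the populations to structure, function and vulnerability. No label tells if each library of a turn had its own animals, so p-values here reflect the scatter of these libraries alone, and that scatter may be technical.

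The hair bundle is a staircase of stereocilia, actin-filled projections whose deflection opens the transduction channels. Unconventional myosins are motor proteins that walk on actin filaments and carry or anchor proteins in each stereocilium, and loss of Myo6, Myo7a, Myo15a or Myo3a function is a known cause of inherited deafness. Myo6 moves toward the minus end of actin and works at the stereocilia base, Myo7a anchors the upper end of the tip link, and Myo15a brings the elongation complex to the tips. The class III motors Myo3a and Myo3b carry espins to the tips, Myo1c is a class I motor studied in the adaptation of transduction, and Myo1h is another class I myosin whose role is less well defined.

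The libraries held 16511675 to 23140976 gene counts, and 11244 to 16333 genes had a count in a library. All 14 hair cell markers had counts in every library and took 2.27% to 4.33% of counts in apical and 0.880% to 6.84% in basal libraries. Ocm2 had the highest level among them, at a mean of 15947 FPKM in apical and 36247 in basal libraries. Its fitted level was higher in basal libraries, whereas 10 of the 14 had a lower one. Slc17a8, the vesicular transporter that defines inner hair cells, was at 0 in 4 of 6 libraries, with 26 counts in apical replicate 1 and 61 in basal replicate 3. Tbx2, the other inner hair cell marker listed, had 11 to 210 counts in apical and 24 to 447 in basal libraries. Markers of other cells were also counted. The 12 Schwann cell markers took 0.0418% to 0.103% of apical counts and 0.349%, 3.71% and 2.51% in basal replicates 1, 2 and 3, and all 12 had a higher fitted level in basal libraries. Mag, Egr2 and Ncmap were at 0 in apical replicate 2, and Prx, Mag and Egr2 in apical replicate 3. The 9 mesenchyme markers took 0.0854% to 0.151% of apical counts and 0.161%, 1.24% and 2.44% across the basal turn. The 9 supporting cell markers took 0.314% to 0.913% of apical and 0.0701% to 0.172% of basal counts, with Hes5 at 0 in 3 libraries, Gjb6 in 1 and Prox1 in 1. The 10 macrophage markers took 0.00394% to 0.00716% of apical and 0.0220% to 0.195% of basal counts, and the 6 red blood cell markers 0.0178% to 0.153% and 0.246% to 1.14%. In such pooled RNA, fewer cells of a type and less RNA per cell cannot be told apart.

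The sequences upstream of 3 members are shown because their levels differed most plainly: Myo6 was high in every library, Myo7a lower and variable, and Myo3b had no count in any basal library. Each run is the 250 bases before the gene start in RefSeq, on assembly GRCr8, written 5′ to 3′ on the gene's strand. This assembly differs from the unnamed build of the count table. Capitals mark GC boxes (GGGCGG on either strand). Myo6 lies at chr8:89967147-89967396 on the plus strand, Myo7a at chr1:161818578-161818827 on the minus strand and Myo3b at chr3:75227767-75228016 on the plus strand.
Myo6: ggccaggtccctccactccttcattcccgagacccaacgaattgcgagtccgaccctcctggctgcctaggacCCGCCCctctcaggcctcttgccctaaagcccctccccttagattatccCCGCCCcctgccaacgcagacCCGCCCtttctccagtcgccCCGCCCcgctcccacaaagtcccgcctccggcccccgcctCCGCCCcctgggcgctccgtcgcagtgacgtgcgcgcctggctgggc
Myo7a: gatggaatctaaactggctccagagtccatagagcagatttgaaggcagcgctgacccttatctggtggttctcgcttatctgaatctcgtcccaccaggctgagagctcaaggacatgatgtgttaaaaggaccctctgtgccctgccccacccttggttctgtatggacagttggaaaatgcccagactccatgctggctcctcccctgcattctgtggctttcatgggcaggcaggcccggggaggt
Myo3b: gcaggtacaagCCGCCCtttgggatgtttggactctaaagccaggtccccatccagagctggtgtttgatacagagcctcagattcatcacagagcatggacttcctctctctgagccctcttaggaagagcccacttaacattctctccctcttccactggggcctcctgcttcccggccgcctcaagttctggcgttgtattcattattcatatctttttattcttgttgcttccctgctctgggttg

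The Myo6 stretch held 5 GC boxes and 21 CpG dinucleotides, with a G and C content of 70.4%. The Myo7a stretch held 0 GC boxes and 4 CpG dinucleotides at 54.8%, and the Myo3b stretch 1 GC box and 4 CpG dinucleotides at 51.2%. Over 33465 promoters of the same length, 30.5% held a GC box and the median number of CpG dinucleotides was 5. An E-box (CANNTG, the palindromic core bound by basic helix-loop-helix factors such as Atoh1) was found once upstream of Myo7a and not upstream of Myo6 or Myo3b, against 65.5% of all promoters with at least 1. TATAA (both strands) was in none of the 3 stretches and in 24.0% of all promoters, and CCAAT (both strands) was in none of them and in 34.0%. These are letter matches in 1 window per gene. Of the 7 members 5 had an entry in that table, and Myo15a and Myo3a had none.

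Myo6 was the most abundant member in every library. Its level was 128, 135 and 102 FPKM (fragments scaled to gene length and library total) across the apical turn and 111, 71.8 and 28.3 FPKM in the basal ones. The mean was 122 ± 17.6 FPKM for the apical turn and 70.5 ± 41.5 for the basal turn (SD, n = 3 each). The highest basal library lay above the lowest apical one, so the groups overlapped, and basal replicate 3 was the lowest of all. Myo6 (ENSRNOG00000011852, chromosome 8, 87630916 to 87731269) had 18427 to 22824 counts in apical and 4491 to 16051 in basal libraries, so counting error is small beside the spread between libraries. It held 63.5% to 79.9% of the summed FPKM of the 7 members and ranked first among all matched unconventional myosins in each of the 6 libraries. Its fitted log2 fold change, basal over apical, was -0.69 (SE 0.54, edgeR quasi-likelihood adjusted p = 1.00).

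Below Myo6 the order of levels was not steady. In apical libraries mean levels ran from Myo3a (13.5 ± 3.1 FPKM) through Myo7a (11.7 ± 9.5), Myo1h (6.05 ± 7.41), Myo15a (4.02 ± 2.76) and Myo3b (1.82 ± 1.28) to Myo1c (0.266 ± 0.461; SD, n = 3 each). Myo3a was above Myo7a in 2 of 3 apical libraries, Myo7a above Myo1h in 2 of 3 and Myo1h above Myo15a in 2 of 3, so these neighbours did not differ beyond their spread. In basal libraries the order was Myo3a (9.42 ± 6.55 FPKM), Myo1c (9.35 ± 8.51), Myo7a (4.35 ± 3.54), Myo1h (3.79 ± 4.96), Myo15a (3.12 ± 2.42) and Myo3b at 0. From Myo3a to Myo1h every SD in that basal list was larger than the gap to the next member, and Myo15a was above Myo3b in 3 of 3. Myo6 was above every other member in 6 of 6 libraries. The next member was Myo7a in apical replicate 1 (5.74-fold lower), Myo3a in apical replicates 2 and 3 and basal replicate 1 (7.97-fold, 8.62-fold and 7.87-fold lower), and Myo1c in basal replicates 2 and 3 (4.22-fold and 2.60-fold lower).

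**Figure D1:**
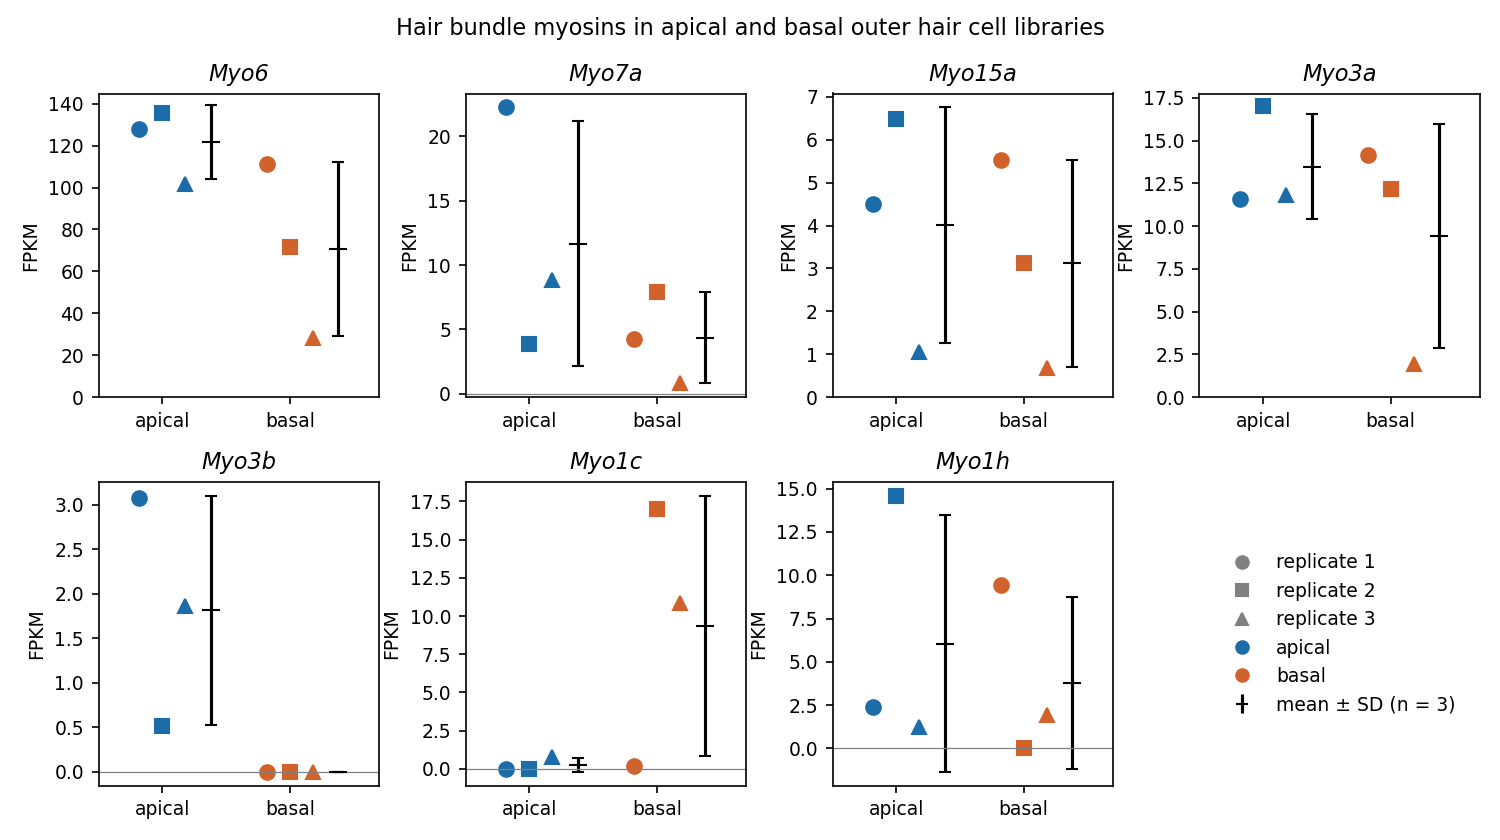
FPKM of the 7 hair bundle myosins in each library, with 1 panel and 1 linear axis per gene; points are libraries (blue apical, orange basal, shape by replicate) and black bars are the mean ± SD (n = 3). The groups overlap for every gene but Myo3b, which is at 0 in the 3 basal libraries, and basal replicate 3 is the lowest library for Myo6, Myo7a, Myo15a and Myo3a.

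Myo7a, the motor of the upper tip link density, varied widely within both turns. It was at 22.3, 3.88 and 8.87 FPKM across the apical turn and at 4.25, 7.95 and 0.868 FPKM across the basal turn. The apical libraries spanned 5.73-fold and the basal ones 9.15-fold, and the groups overlapped. Its counts were 3462, 492 and 1397 in apical and 534, 893 and 120 in basal libraries (ENSRNOG00000013641, chromosome 1, 163001875 to 163071508). The fit gave a log2 fold change of -1.37 (SE 0.94, edgeR adjusted p = 1.00), and -0.51 without apical replicate 1, the library with the highest value. The level of Myo6 relative to Myo7a ranged from 5.74-fold to 34.9-fold within the apical turn and from 9.04-fold to 32.6-fold within the basal turn.

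Myo15a, which delivers whirlin and Eps8 to the tips, showed no steady difference between turns. It was at 4.51, 6.49 and 1.05 FPKM across the apical turn and at 5.53, 3.14 and 0.685 FPKM across the basal turn. Both turns thus held 1 library near or below 1 FPKM, which was replicate 3 in each. Its counts were 254 to 1269 in apical and 146 to 1071 in basal libraries (ENSRNOG00000059219, chromosome 10, 46840113 to 46896054). The estimated log2 difference was -0.26 (SE 1.00, edgeR adjusted p = 1.00), and its sign turned without apical replicate 2 (0.26) or without basal replicate 3 (0.22).

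The class III motors differed from each other. Myo3a was at 11.6, 17.0 and 11.8 FPKM across the apical turn and at 14.1, 12.2 and 1.94 FPKM across the basal turn. Basal replicates 1 and 2 lay within the apical range and basal replicate 3 lay below it. The fitted log2 difference was -0.42 (SE 0.77, edgeR adjusted p = 1.00) with all libraries and 0.059 without basal replicate 3. Myo3a (ENSRNOG00000018478, chromosome 17, 88963981 to 89167018) is overlapped near its end by LOC100360843 on the opposite strand, which had 100 counts in apical replicate 2, 17 in basal replicate 2 and 0 elsewhere. The library kit as named does not record strand, so reads of the overlap cannot be told apart.

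Myo3b (ENSRNOG00000030022, chromosome 3, 56355431 to 56584547) was counted in apical libraries and had no count in any basal library. It had 237, 32 and 145 counts across the apical turn, which is 3.08, 0.510 and 1.86 FPKM, and 0 counts across the basal turn. The groups did not overlap, as was the case for 15.8% of all 13507 genes tested, for 10.4% with apical and 5.40% with basal libraries higher. Against a floor of 3 counts over the basal group, Myo3b was at least 118-fold higher in apical libraries. That floor covers counting error only. By edgeR's quasi-likelihood test Myo3b did not pass (adjusted p = 0.438). DESeq2 called it (adjusted p = 0.0285), but not without apical replicate 2 (adjusted p = 0.129) or apical replicate 3 (adjusted p = 0.466), and it gave no adjusted p without apical replicate 1. Without basal replicates 1, 2 and 3 in turn DESeq2 still called it, at adjusted p = 0.0116, 0.0216 and 0.0177. The authors' deposited table lists Myo3b with an adjusted p of 0.664. Myo3b passed the filter on low counts through its apical libraries alone. With no such filter the adjusted p was 0.599 by edgeR and 0.000198 by DESeq2. It made up 21.0%, 2.91% and 13.6% of the summed class III FPKM across the apical turn. The summed share of supporting cell markers, given above, was likewise higher in every apical than in any basal library. However, only S100a1 and Otog of the 9 markers did not overlap. By FPKM S100a1 dominated that list, at a mean of 16330 in apical and 3628 in basal libraries. Gjb2, the next highest, had means of 77.0 and 53.1 FPKM. The part of supporting cells in the Myo3b counts was not tested.

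Myo1c was near 0 in 4 libraries and clearly counted in 2. It had 0, 0 and 70 counts across the apical turn and 13, 1064 and 836 counts across the basal turn, which is 0, 0 and 0.798 FPKM against 0.186, 17.0 and 10.9 FPKM. Basal replicate 1 lay below apical replicate 3, so the groups overlapped. Basal replicates 2 and 3 were also the libraries with the highest shares of Schwann cell markers (3.71% and 2.51%, against 0.349% in basal replicate 1) and of mesenchyme markers (1.24% and 2.44%, against 0.161%). The part of such cells in the Myo1c counts was not tested. The log2 fold change of Myo1c (ENSRNOG00000004072, chromosome 10, 63803309 to 63819614) was 5.14 (SE 2.62, edgeR adjusted p = 0.978). DESeq2 did not call it with all libraries (adjusted p = 0.287) and called it without apical replicate 3, which leaves the apical group at 0 (adjusted p = 1.19e-04).

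Myo1h was patchy in both turns. It had 117, 589 and 61 counts across the apical turn and 377, 1 and 85 counts across the basal turn, or 2.36, 14.6 and 1.22 FPKM against 9.42, 0.0279 and 1.93 FPKM. The highest and lowest values of the basal turn were 337-fold apart, and the groups overlapped. Its log2 fold change (ENSRNOG00000047191, chromosome 12, 48011100 to 48048540) was -0.51 (SE 1.94, edgeR adjusted p = 1.00), and the sign turned without apical replicate 2 (1.24) or basal replicate 2 (0.070). In basal replicate 2, where Myo1h had a single count, Myo1c made up 99.8% of the summed FPKM of these class I members, while in basal replicate 1 it made up 1.94%.

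Of the 7 members, 0 passed an adjusted p of 0.05 by edgeR's quasi-likelihood test, as did 0 of 13507 genes (0%). An unadjusted p under 0.05 was reached by 1 member, Myo3b, against 6.0% of all genes tested. DESeq2 called 1 member, again Myo3b, against 2.85% of the genes with an adjusted p. The authors' deposited adjusted p was under 0.05 for 0 members, against 0.534% of the 20038 genes that had one. The fitted level was lower in basal libraries for 6 of 7 members, against 51.0% of all genes. Their median log2 fold change was -0.51, with Myo3b at its fitted value or at its bound, against -0.02 over all genes. Leaving out basal replicates 2 and 3, which leaves 1 basal library and moves the median of all genes to -1.21, turned the sign for Myo6 (0.076), Myo15a (0.66), Myo3a (0.27) and Myo1h (0.83), as well as for Myo1c.

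**Figure D2:**
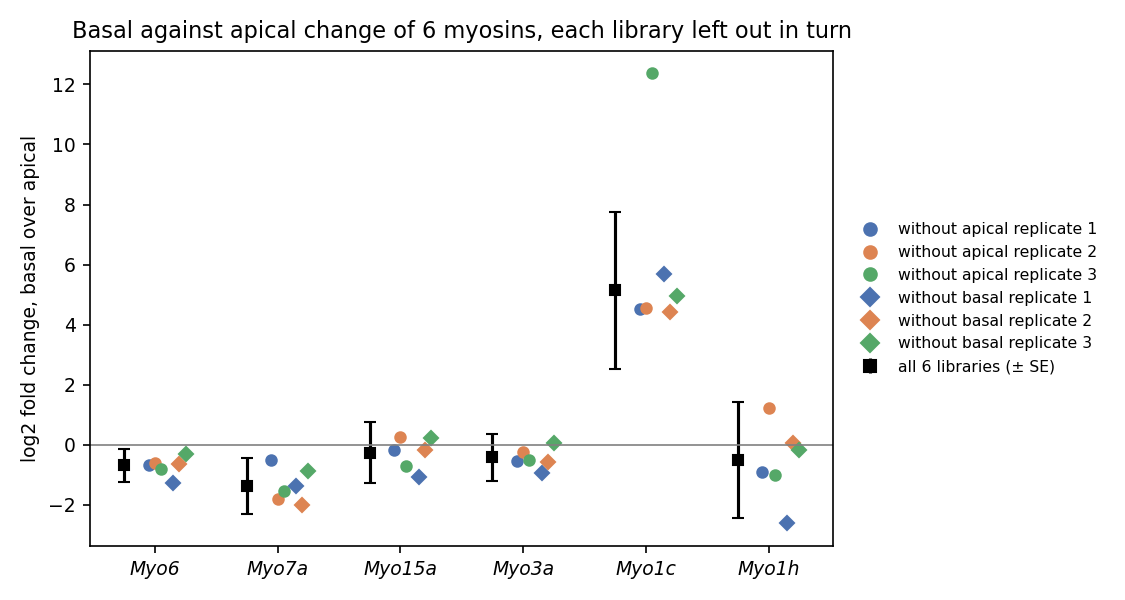
Fitted log2 fold change, basal over apical, of 6 members with all 6 libraries (black squares, bars are ± SE) and with each library left out (circles, apical; diamonds, basal). Myo3b is not drawn because its basal counts are 0. The estimates for Myo15a, Myo3a and Myo1h cross 0 when single libraries are left out. The point of Myo1c without apical replicate 3 is a fit against an apical group at 0 counts and is no bound.

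The summed members took 0.127%, 0.127% and 0.0937% of counts across the apical turn and 0.105%, 0.0772% and 0.0289% across the basal turn. A set of 8 hair cell reference genes that holds no myosin (Pou4f3, Gfi1, Otof, Slc26a5, Cabp2, Lhfpl5, Strc and Lmo7) moved in a similar way across libraries, at 0.459%, 0.471% and 0.279% in apical and 0.440%, 0.250% and 0.0657% across the basal turn. Basal replicate 3, which held the least of both, had 2.51% of its counts in Schwann cell markers. Set against the reference genes, the summed members stood at 27.7%, 26.9% and 33.5% across the apical turn and at 23.8%, 30.9% and 44.0% across the basal turn. The groups overlapped and the mean log2 ratio was -1.77 ± 0.17 for apical and -1.65 ± 0.45 for basal libraries (SD, n = 3 each). The difference of 0.12 did not pass a two-sided exact permutation test (p = 0.8), where 3 against 3 cannot go below 0.1. Each library was also summarised as mean log2(CPM + 1) of the members minus that of the reference. The difference between turns was then 0.70, with an exact permutation p of 0.1, the smallest that 3 against 3 allow. This measure weighs every gene alike, so Myo1c and Myo3b (edgeR log2 fold changes of 5.14 and -9.91) weigh as much as Myo6. Of the reference genes, Gfi1, Otof and Lmo7 were themselves higher in every apical library. Pou4f3, Cabp2 and Strc had a higher fitted level in basal libraries. For the summed ratio, the sign of the difference of 0.12 turned without basal replicate 3 (-0.11). It also turned with 14 hair cell markers as the reference (-0.40), among which Ocm2 had the highest mean FPKM. Myo6 alone ranged from 21.8% to 28.5% of the reference in apical and from 19.7% to 33.7% in basal libraries. Myo3b stood at 0.226%, 0.0365% and 0.224% of the reference in apical libraries. With 0 counts in every basal library, its groups cannot overlap on this scale, whatever the reference.

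**Figure D3:**
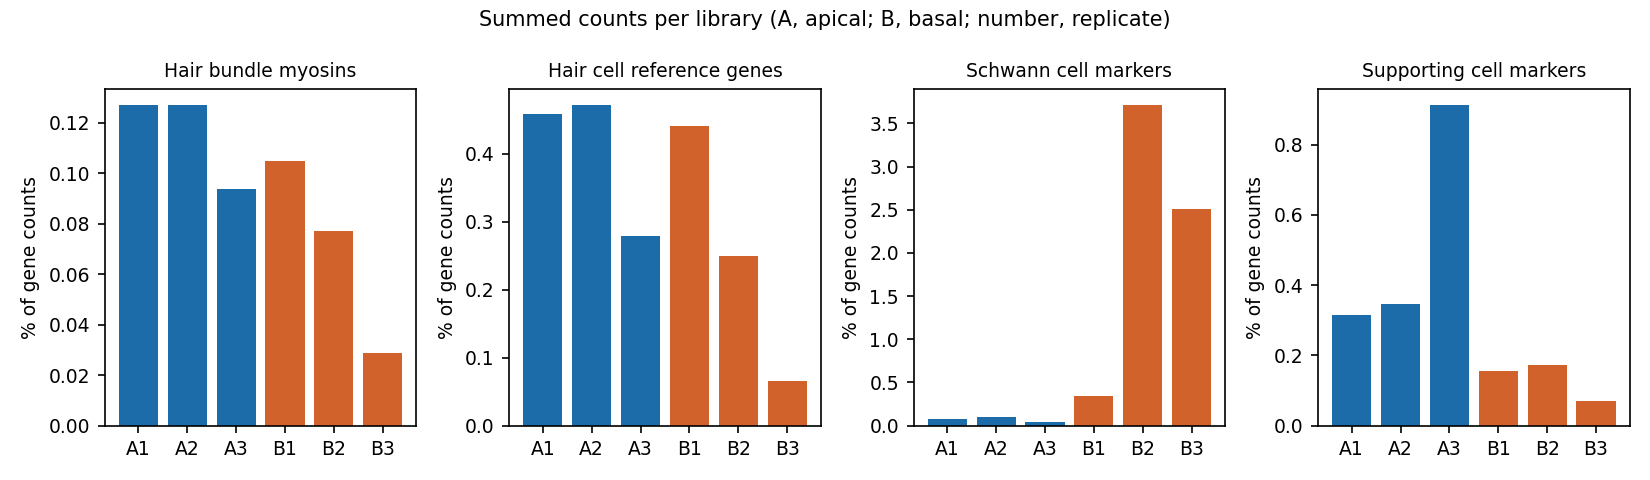
Share of gene counts, in percent, taken in each library by the 7 myosins, 8 hair cell reference genes, 12 Schwann cell markers and 9 supporting cell markers; bars are single libraries (A, apical; B, basal). The myosin and reference bars are both lowest in basal replicate 3, at 0.0289% and 0.0657%. The Schwann cell bars are highest in basal replicates 2 and 3. Among the supporting cell markers S100a1 had by far the highest FPKM.

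Across the 6 libraries the members did not form a single pattern. Pearson's r of log2 CPM (counts over the scaled library total) was 0.94 for Myo6 with Myo3a, 0.79 for Myo6 with Myo15a, 0.79 for Myo15a with Myo3a and 0.73 for Myo6 with Myo7a. It was -0.81 for Myo6 with Myo1c and -0.73 for Myo1c with Myo1h, and 0.35 for the class III motors. These values are descriptions over 6 libraries that share the fall of hair cell genes in basal replicate 3. Among 10866 other genes with a mean of at least 100 counts, those closest to Myo6 were Eya3 (0.997), Lpcat4 (0.996) and Camsap3 (0.992), and those closest to Myo7a were Ubash3b (0.995), Rab11fip1 (0.994) and Med16 (0.990). Closest to Myo3a were Pkib (0.994), Strn4 (0.988) and an unannotated locus (0.987), and closest to Myo15a were an unannotated locus (0.987), Disc1 (0.984) and Ube2e2 (0.980). Closest to Myo3b were Scaper (0.998), Slc7a14 (0.990) and Upp1 (0.990). Closest to Myo1c were Anxa2 (0.990), Id3 (0.983) and Abracl (0.981), and closest to Myo1h an unannotated locus (0.999), Snx2 (0.999) and Golga4 (0.990). With 6 points and so many genes, correlations of at least 0.98 were found for every profile searched.

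The partners of these motors were measured in the same libraries. Of 33 listed partners and light chains 32 were matched and 30 tested, with Ush1g and Anks4b too low. The fitted level was lower in basal libraries for 21, against 51.0% of all genes, and higher for 9, with a median log2 fold change of -0.38 against -0.02 over all genes. By edgeR's quasi-likelihood test 0 of 30 passed, and 6 had an unadjusted p under 0.05, against 6.0% of all genes, with 5 of them lower in basal libraries. DESeq2 called Espnl, Gpsm2 and Otof, against 2.85% of all genes. The groups did not overlap for 8 of 30, with apical higher in 7, against 15.8% and 10.4% of all genes. Such a lean was not particular to the partners. Of the 14 hair cell markers, which share Otof and Ptprq with this list, 10 had a lower fitted level in basal libraries. Their median log2 fold change was -1.54, and the groups did not overlap for 7, each with apical higher.

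Partners of Myo15a and of the class III motors included genes that lay higher in every apical library. Gpsm2, which joins whirlin and Eps8 in the tip complex, was at 84.6, 113 and 68.5 FPKM in apical and 30.3, 30.4 and 17.7 FPKM across the basal turn, with no overlap. The fitted log2 difference was -1.69 (SE 0.43, edgeR adjusted p = 0.438, DESeq2 adjusted p = 0.0443). With single libraries left out, DESeq2 called Gpsm2 only without basal replicate 1. Whrn (whirlin) was at 10.4, 3.54 and 6.28 FPKM in apical libraries, at 2.79 FPKM in basal replicate 1, and had no count in basal replicates 2 and 3. Its groups did not overlap, at a log2 fold change of -2.66 (SE 2.46, edgeR adjusted p = 1.00). Eps8, the actin regulator that Myo15a carries, was at 4.38 to 10.1 FPKM in apical and 1.11 to 15.2 in basal libraries. Its groups overlapped, although the basal median of 2.25 FPKM lay below the apical range. Gnai3, the G protein subunit of the complex, overlapped too, at 47.2 to 90.2 FPKM in apical and 44.6 to 117 in basal libraries. Espnl, an espin-like cargo of class III myosins, was at 64.3, 31.9 and 12.9 FPKM in apical and 6.68, 1.76 and 1.05 FPKM across the basal turn. Its groups did not overlap, at a log2 fold change of -3.39 (SE 1.00, edgeR adjusted p = 0.438, DESeq2 adjusted p = 0.0297). DESeq2 no longer called Espnl without apical replicate 1, apical replicate 2 or basal replicate 2. Espn (espin, an actin bundler carried by Myo3a) was at 196 to 398 FPKM in apical and 24.4 to 191 in basal libraries, and its log2 fold change of -1.35 (SE 0.72) did not pass (edgeR adjusted p = 1.00).

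Of the 8 tested partners of Myo7a, 6 had a lower fitted level in basal libraries, against 51.0% of all genes. Their median log2 fold change was -0.48. Ush1c (harmonin, the scaffold that links Myo7a to the tip link) was at 31.4 to 130 FPKM in apical and 19.9 to 62.4 in basal libraries. Its other scaffold partner Ush1g (sans) had 6 counts in apical replicate 1 and 0 in the other 5 libraries. The tip link cadherins overlapped between turns, with Cdh23 at 2.16 to 5.23 FPKM in apical and 1.44 to 4.79 in basal libraries and Pcdh15 at 0.687 to 6.68 and 0 to 2.17 FPKM. Twf2 (twinfilin, an actin capping protein transported by Myo7a) was at 505, 273 and 308 FPKM in apical and 220, 155 and 86.7 FPKM across the basal turn. Its groups did not overlap, and its log2 fold change of -1.14 (SE 0.48) did not pass (edgeR adjusted p = 0.810).

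Of the 9 tested partners of Myo6, 5 had a lower and 4 a higher fitted level in basal libraries. Over all genes 51.0% had a lower one. The median log2 fold change of these partners was -0.0098. Their groups did not overlap for 3, each with apical higher, against 15.8% and 10.4% of all genes. Ptprq (a phosphatase that Myo6 keeps at the stereocilia base) was at 80.0, 62.0 and 35.2 FPKM in apical and 21.6, 2.96 and 6.44 FPKM across the basal turn. Otof (otoferlin, a synaptic protein that binds Myo6 and is also among the 8 reference genes) was at 88.0, 87.2 and 75.2 FPKM in apical and 11.1, 28.7 and 5.49 FPKM across the basal turn. Neither passed by edgeR (adjusted p = 0.483 and 0.438), while DESeq2 called Otof (adjusted p = 0.0146) and not Ptprq (adjusted p = 0.110). The call of Otof was lost without any 1 of the apical libraries. Both lay apart between turns where Myo6 itself overlapped. Among the light chains Myl12a, a regulatory light chain, was at 179 to 234 FPKM in apical and 248 to 391 in basal libraries, the 1 partner or light chain with every basal library above every apical one. The fitted log2 difference was 0.83 (SE 0.33, edgeR adjusted p = 0.760).

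**Figure D4:**
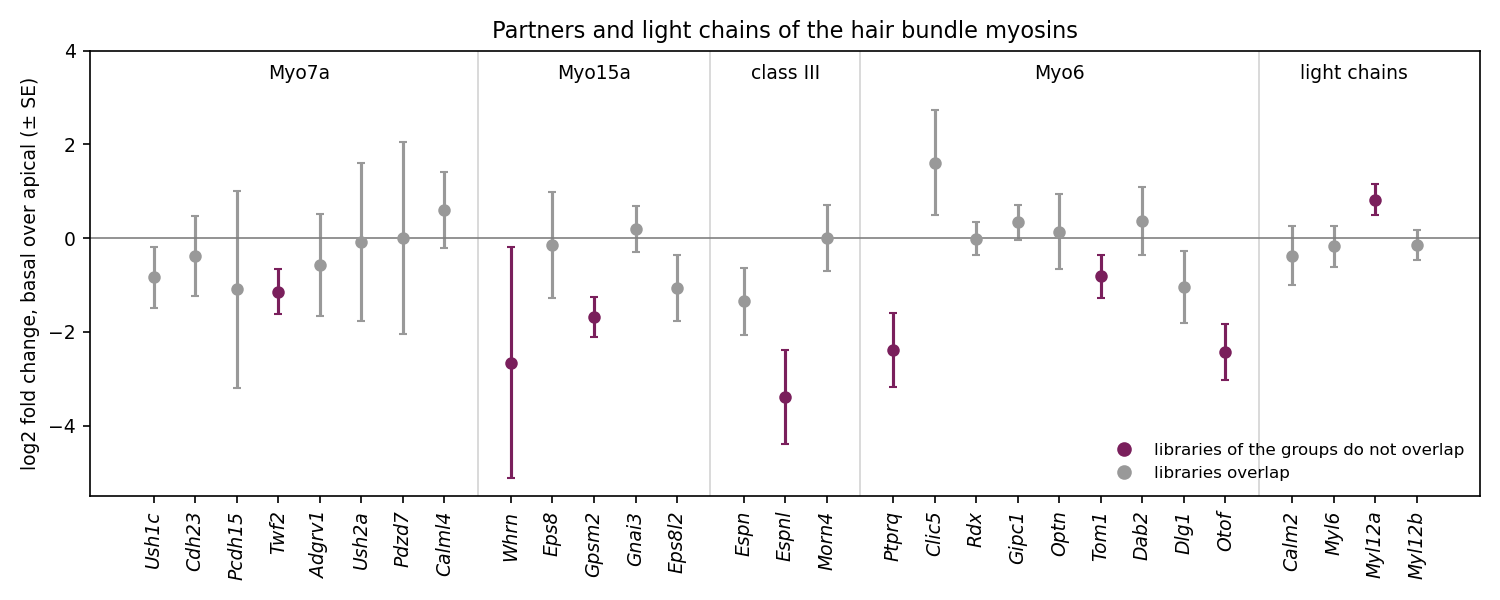
Fitted log2 fold change, basal over apical (± SE), of 29 of the 30 tested partners and light chains. Partners are grouped by the myosin they were listed under, and the light chains form a group of their own. Purple points are the 8 genes whose apical and basal libraries did not overlap, against 15.8% of all genes tested. Of these 8 genes 7 lay below 0, and none passed an adjusted p of 0.05 by edgeR's quasi-likelihood test.

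The remaining unconventional myosins of the table made up the smaller share in 5 of 6 libraries. The 7 members held 75.7% to 86.0% of the summed unconventional myosin FPKM in apical libraries. That share was 83.3% and 85.3% in basal replicates 1 and 2 and 49.6% in basal replicate 3. Of these 17 other genes 12 were tested, 8 with a higher and 4 with a lower fitted level in basal libraries. Over all genes 51.0% had a lower one. By edgeR's quasi-likelihood test 0 passed and 0 had an unadjusted p under 0.05, against 6.0% of all genes. The groups did not overlap for 1, with apical higher, against 15.8% and 10.4% of all genes. That gene, Myo16, named after its values were seen, was at 3.24 to 3.62 FPKM in apical and 0 to 0.997 in basal libraries. Myo1e, a widely expressed class I motor, was the highest, at 10.8 to 36.3 FPKM in apical and 4.32 to 12.7 in basal libraries. Myo1d was at 1.97 to 6.30 FPKM in apical and 0.849 to 5.20 in basal libraries, and Myo9b at 1.81 to 3.91 and 1.59 to 4.45 FPKM. Myo1f, a class I motor of leukocytes, was at 0, 0 and 0.249 FPKM in apical and 4.09, 0 and 1.42 FPKM across the basal turn, the basal libraries with counts being those with the higher macrophage marker shares (0.134% and 0.195%), whose part in the counts was not tested. Myo18b, named after its values were seen, had 157, 5 and 75 counts in apical libraries and 0 in the 3 basal libraries, and was too low for the edgeR test. Of the conventional heavy chains, Myh14 was at 2.08 to 4.89 FPKM in apical and 1.95 to 15.1 in basal libraries, and Myh4, a heavy chain of fast skeletal muscle, at 0.00735 to 0.731 and 3.80 to 8.86 FPKM. Their log2 fold changes of 1.12 (SE 0.97) and 3.99 (SE 1.56) did not pass (edgeR adjusted p = 1.00 and 0.715).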

How the data were processed

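The authors deposited, for 6 libraries, raw whole-number counts and FPKM values of each gene, per the file headers. TopHat2 2.0.12 and Bowtie2 2.2.3 are named in the submitters' processing notes; the sources used here give neither build, annotation nor counter, so coordinates were copied as deposited. The deposited FPKM matched counts scaled by length and total within 1e-06 for 5 members and differed by up to 0.257% for Myo15a and 4.43% for Myo1h. The authors' deposited log2 fold changes, p-values and mean normalized signal per group were used only where named.

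Counts were fitted with edgeR 4.0.16 in R 4.3.3 (filterByExpr, leaving 13507 genes, TMM scaling, glmQLFit with its default form, glmQLFTest, Benjamini-Hochberg adjustment across the whole fit). Each SE came from the log2 fold change and the root of its F statistic. DESeq2 1.42.0 and limma 3.58.1 were alternatives. Tests were also run on simulated counts in which only genes with high mean counts were changed. That check does not cover genes with few counts such as Myo3b. CPM used a prior count of 2 on the log2 scale. Of 132 listed symbols 127 were matched, 1 through an older symbol. Named were the 7 members, 12 set partners and 3 of smallest p, of the other myosins the 4 of highest mean FPKM and 2 of smallest p, 2 heavy chains of highest mean FPKM, and 3 genes of closest profile per member. Some genes these rules name are not reported here. Members and lists were chosen with earlier results of these data known.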

Additional observations from a re-analysis of the deposited data

How the results depend on the processing

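Of 27 alternative settings, 21 called 0 members and 15 called 0 genes by an adjusted p of 0.05; all 19 settings other than DESeq2 called 0 members. Over all genes 8 were called with no filter on low counts, 28 by the bias-adjusted quasi-likelihood test, 363 by DESeq2, 0 to 2 with a library left out, and 289 with basal replicates 2 and 3 left out, an alternative chosen after seeing the data that keeps 1 basal library, assumed to vary like the apical ones, and puts the median of all genes at -1.21. DESeq2 with no filter on low counts, also chosen after seeing the data, called 663 genes, 1 member (Myo3b) and 5 genes of the partner and myosin lists. DESeq2 with a library left out was again chosen after seeing the data. It called 292, 215 and 218 genes without apical replicates 1, 2 and 3. Without basal replicates 1, 2 and 3 it called 879, 464 and 1166. These DESeq2 fits called 0 to 1 members and 0 to 8 genes of those lists, against 1 and 3 with all libraries. The cause was not tested. The sign was the same under every alternative that gave a value for Myo7a and Myo3b. It turned for Myo15a, without apical replicate 2 (0.26; DESeq2 0.41), without basal replicate 3 (0.22; DESeq2 0.31) and without basal replicates 2 and 3 (0.66), and for Myo3a without basal replicate 3 (0.059; DESeq2 0.16) or without basal replicates 2 and 3 (0.27). It turned for Myo1h without apical replicate 2 (1.24; DESeq2 1.38), basal replicate 2 (0.070; DESeq2 0.13) or basal replicates 2 and 3 (0.83), and with the latter for Myo6 (0.076) and Myo1c (-0.31). With a library left out the range was -1.08 to 0.26 for Myo15a, -0.936 to 0.059 for Myo3a and -2.61 to 1.24 for Myo1h. The ratio to hair cell reference genes turned with 14 markers (-0.40) and with basal replicates 2 and 3 left out (-0.30), was -0.11 to 0.33 with a library left out, and was 0.70 as a difference of mean log2(CPM + 1), at the smallest exact permutation p that 3 against 3 allow (0.1). With the replicate number as a block, 0 genes and 0 members were called and the log2 fold changes of Myo6 and Myo7a were -0.92 and -1.62, while same-numbered libraries had correlations of deviations of -0.038, 0.0067 and 0.14. Single libraries held 0 or 1 counts of Myo3b, Myo1c and Myo1h.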
